A study of Mus musculus with 2 samples.

Results

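The genes described here are the parts of the Rubicon-Vps34 complex and of the NADPH oxidase by which LC3-associated phagocytosis (LAP) is usually told from canonical autophagy. They were chosen by name as 9 of the 22609 gene rows, 5 for the lipid kinase complex (1700021K19Rik, the older symbol of Rubcn or Rubicon, Uvrag, Becn1, Pik3c3 and Pik3r4) and 4 for the oxidase (Cyba, Cybb, Ncf1 and Nox4). The cells were TM4, an established mouse Sertoli cell line that stands in for the nurse cell of the seminiferous tubule. They received either the miR-471-5p mimic, a synthetic copy of a miRNA of Sertoli cells, or a scramble control, and were otherwise grown alike in DMEM. After 48 h an Ago2 antibody was used to pull down the RNA held by Argonaute, the protein that carries miRNAs to mRNAs. Each condition has 1 library, so no difference below has a replicate check and no p-value is given. The study asked which mRNAs gain Ago2 association with miR-471-5p.

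In LAP, an engulfed corpse sits in a phagosome with a single membrane. Vps34 (Pik3c3), a class III PI3 kinase held on membranes by its regulatory partner Vps15 (Pik3r4), works with Beclin 1 (Becn1) and UVRAG to make the lipid PI3P on that membrane. Rubicon restrains this kinase complex in canonical autophagy but is required for LAP, where it also stabilises the phagocyte NADPH oxidase. That oxidase, NOX2, has gp91phox (Cybb) as its catalytic chain and p22phox (Cyba) as its membrane partner, and p47phox (Ncf1) organises the cytosolic subunits around it. Its reactive oxygen, together with PI3P, leads to the attachment of LC3 to the phagosome. Nox4 is a separate catalytic chain that also needs p22phox but works without the cytosolic subunits. Vps34, Vps15 and Beclin 1 serve canonical autophagy as well, so not all of the 9 genes are particular to LAP.

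The sequences that bear on the comparison are the transfected miRNA and the stretches of these mRNAs that match its seed. The mature sequence, credited to RefSeq (GRCm38.p6), is on the minus strand at chrX:66792634-66792655, and capitals mark the seed, nucleotides 2 to 8.
miR-471-5p: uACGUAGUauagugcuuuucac
An mRNA pairs with the whole seed through the 7 bases ACTACGT, called a 7mer-m8 match, and with nucleotides 2 to 7 through CTACGT, called a 6mer. In the GENCODE M21 transcripts of GRCm38, a 7mer-m8 match was present in the coding regions of Cyba and Nox4, and a 6mer in the coding region of Pik3r4. Each line below shows 29 bases of mRNA, of which the first 22 lie opposite the miRNA, with the match in capitals.
Cyba, coding base 260 of 579, exon 4 of 6: cctcaccaggaattACTACGTccgggctg
Nox4, coding base 722 of 1779, exon 9 of 18: tatgtccataccagACTACGTctcagaac
Pik3r4, coding base 1818 of 4077, exon 7 of 20: agtcggtgtggctgcCTACGTtggctggc
The 7 matched bases of Cyba are at chr8:122426957-122426963 on the minus strand, those of Nox4 at chr7:87321638-87321644 on the plus strand, and the 6 of Pik3r4 at chr9:105658429-105658434 on the plus strand. Beyond the seed the pairing was poor. Aligned without gaps, 2 of the 14 remaining nucleotides of the miRNA met a Watson-Crick partner in Cyba, 3 in Nox4 and 1 in Pik3r4. The Cyba match was in 1 of its 2 annotated coding transcripts and the Nox4 match in 2 of 3.

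Among the 9 genes, Cyba alone was past the fold, a log2 ratio of 1 between the libraries, and no gene of the Vps34 complex was. Over all tested genes 3.96% were past it upward and 3.08% downward. Cyba was 3.05-fold higher in the Ago2 IP of mimic-transfected cells, and Nox4 was 1.73-fold higher on far fewer reads. Becn1 was the lowest at 0.739 of its scramble level. Cybb and Ncf1, the catalytic chain and the organiser of the phagocyte oxidase, were at or near 0 reads in both libraries. These values are ratios of CPM, the counts scaled to a fixed total of reads on genes, with library sizes adjusted by TMM. Since input RNA was not analysed here, more mRNA in the cell and more of it on Ago2 cannot be told apart, nor can more RNA per cell and more cells that carry it.

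Reads on genes numbered 18628310 with the mimic and 18717225 with scramble, so that 3 reads, the smallest amount taken as detectable, equal 0.161 CPM in both. Of the 9 genes 7 had at least 20 reads over both libraries and entered the comparison with 12186 genes in all. The Sertoli genes Sox9, with 1228 and 1070 reads in the mimic and scramble libraries, Gata4, with 341 and 365, and Kitl, with 12245 and 16163, were present. The FSH receptor gene Fshr was at 0 in both libraries and Amh, the gene of anti-Müllerian hormone, had 5 reads in each, so these defining Sertoli genes were at or near 0 in this line's Ago2 IP.

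**Figure D1:**
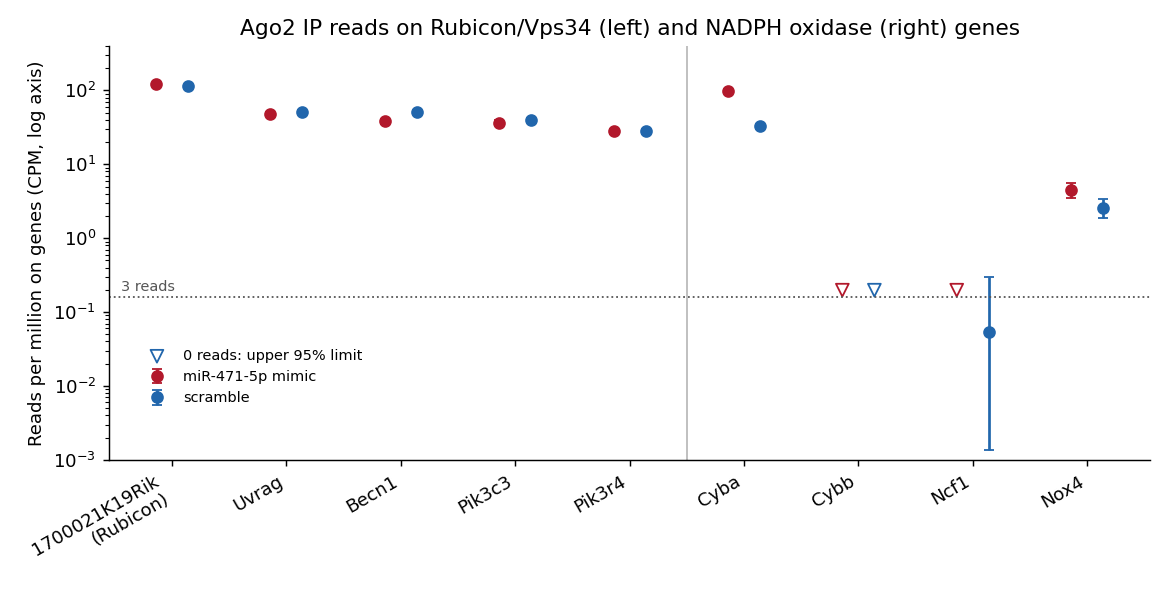
Level of the 9 genes in each Ago2 IP library, in CPM on a log axis, with exact Poisson 95% intervals that cover counting error only. Open triangles give the upper end of that two-sided interval, 0.198 CPM, where a library had 0 reads, and the dotted line marks 3 reads. Cyba shows the widest gap, 99.7 CPM with the mimic against 32.7 with scramble, while the 5 genes at the left sit close together.

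Cyba, which encodes p22phox, had 1863 reads with the mimic and 610 with scramble. The mimic library thus held 75.3% of its reads. Its log2 ratio of mimic to scramble was 1.61, with a 95% interval from 1.48 to 1.74 (exact binomial interval by Clopper-Pearson, counting error only). It was the 1 gene of the 7 with a log2 ratio of at least 1, a fold reached in that direction by 3.96% of all tested genes. Cyba ranked 172 of the 12186 genes from the highest. Most genes ranked above it had fewer reads than Cyba. Of the 3967 tested genes with at least as many reads as Cyba, 12 had a higher ratio, and of the 500 genes nearest to it in level, 0 did.

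Cyba is also among the shortest of the tested mRNAs, and short mRNAs as a whole were higher in the mimic library. Its longest coding transcript has 744 nt, at percentile 1.9 of the tested genes by length. In the shortest decile of genes the median log2 ratio was 0.45 and 10.7% were past the fold, against -0.26 and 0.993% in the longest decile. A curve in transcript length explained 15% of the variance of the log2 ratio over 12077 genes, and gave 0.53 for a gene as short as Cyba. With that trend subtracted, Cyba had a log2 ratio of 1.08 (95% interval 0.94 to 1.21), and with GC content added to the curve it had 1.01 (0.88 to 1.15). Both values were past the fold, and both lower bounds were under it. Within the shortest decile, 43 of 1207 other genes had a higher ratio than Cyba.

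**Figure D2:**
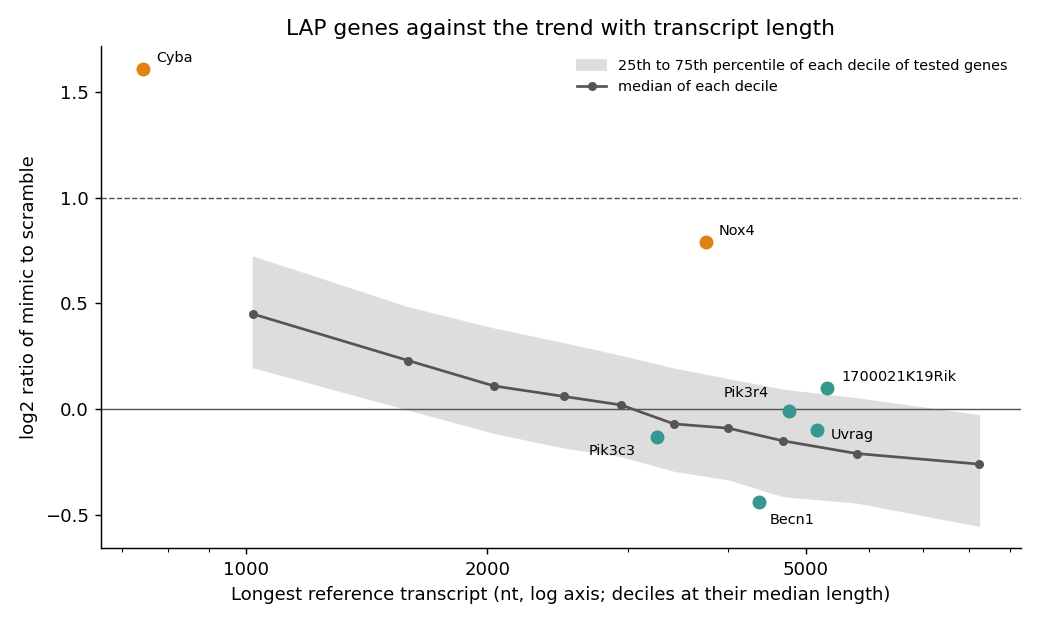
log2 ratio of mimic to scramble (vertical axis) against the longest reference transcript in nt (log axis) for the 7 genes with enough reads. The line is the median and the grey band the 25th to 75th percentile of each decile of tested genes by length. The trend runs from 0.45 to -0.26. Nox4 lies well above the band, 1700021K19Rik (Rubicon) just above it and Becn1 below it. Cyba, at 744 nt, lies to the left of the band, which starts at 1020 nt with an upper edge of 0.72.

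Cyba is well known from macrophages, so their genes are given beside it. Of 9 macrophage genes, the defining markers Ptprc, Emr1 and Itgam were at 0 in both libraries, Csf1r had 18 and 25 reads, and the 9 genes together came to 6.05 CPM with the mimic and 3.54 with scramble, below the 99.7 and 32.7 CPM of Cyba alone. Cd14, a receptor for bacterial lipopolysaccharide on that list, was higher as well, with 81 mimic and 26 scramble reads, at a log2 ratio of 1.64 (95% interval 0.99 to 2.34). The neighbours of Cyba on its chromosome did not share its difference. Among the 5 protein-coding genes on each side, 6 were tested, and their log2 ratios ran from -0.97 to 0.35. An annotated protein-coding gene, Gm20388, covers all of Cyba on the other strand and has no row in the tables. Whether the counting used strand is not given in the sources used here, so reads from it cannot be told apart from those of Cyba.

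Nox4 had 83 reads with the mimic and 48 with scramble, or 4.44 and 2.57 CPM. Its log2 ratio was 0.79, and the 95% interval from 0.26 to 1.33 lay above 0 but reached both sides of the fold. At such depth the ratio is poorly determined. Among the 500 genes nearest in level the SD of the log2 ratio was 0.84, and 75 of them were higher than Nox4. Transcript length moved its ratio little, to 0.83, as its mRNA of 3753 nt is of middling length.

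Of the genes particular to the phagocyte oxidase, the catalytic chain and the organiser were not detectable in the Ago2 IP at this depth. Cybb had 0 reads in both libraries, under the 3 reads, or 0.161 CPM, taken as the smallest detectable amount. Ncf1 had 0 reads with the mimic and 1 with scramble, and no ratio was computed for either gene. In a list of 16 other oxidase genes, p40phox (Ncf4), a cytosolic subunit of NOX2, was as scarce, with 1 read with the mimic and 0 with scramble. Rac2 and the catalytic chains Nox1 and Nox3 were at 0. The GTPase Rac1, which NOX2 shares with engulfment, was level, its log2 ratio being -0.01 (95% interval -0.06 to 0.05) from 4876 and 4897 reads. None of the 6 genes of this list with enough reads was past the fold, which 3.96% of all tested genes passed upward and 3.08% downward. The 6 had a median log2 ratio of 0.05. Noxo1, the organiser of the Nox1 oxidase, was the highest of them at 0.60, from 135 and 89 reads, with an interval whose lower bound was 0.20.

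Rubicon, listed as 1700021K19Rik, had 2285 reads with the mimic and 2132 with scramble. Its log2 ratio was 0.10, and its 95% interval, from 0.01 to 0.19, barely cleared 0. A difference beyond counting error is common in these libraries, as 31.5% of tested genes had an interval above 0 and 32.5% one below 0. At 59.1, its percentile among all tested genes was close to the middle. Transcripts as long as that of Rubicon, 5311 nt, tended to be lower in the mimic library, and with the length trend subtracted its log2 ratio was 0.27 (0.18 to 0.35).

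Becn1 had 713 and 964 reads in the mimic and scramble libraries, and Uvrag, which shares the complex with it, had 902 and 964. Becn1 was lower in the mimic library by more than counting error, with a log2 ratio of -0.44 (95% interval -0.58 to -0.29), at percentile 15 of the tested genes. Among the 7 genes it alone had an interval below 0, where 32.5% of all tested genes had one. With the length trend subtracted, its log2 ratio was -0.34 (-0.48 to -0.20). The paper, by contrast, names Becn1 among mRNAs with more Ago2 association after the mimic. It also reports lower activity of a Becn1 3′-UTR reporter and less Becn1 protein, which are other measures than the reads compared here. Uvrag, at -0.10 (-0.23 to 0.04), did not differ beyond counting error. The kinase Pik3c3 stood at -0.13 (-0.28 to 0.02), from 679 and 743 reads. Its partner Pik3r4, with 519 and 523 reads, was level at -0.01 (-0.19 to 0.17). No gene of the complex was past the fold in either direction, with 3.96% of all tested genes past it upward and 3.08% downward. The median of the 5 was -0.10, against -0.00 over all tested genes, and became 0.06 with the length trend subtracted.

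**Figure D3:**
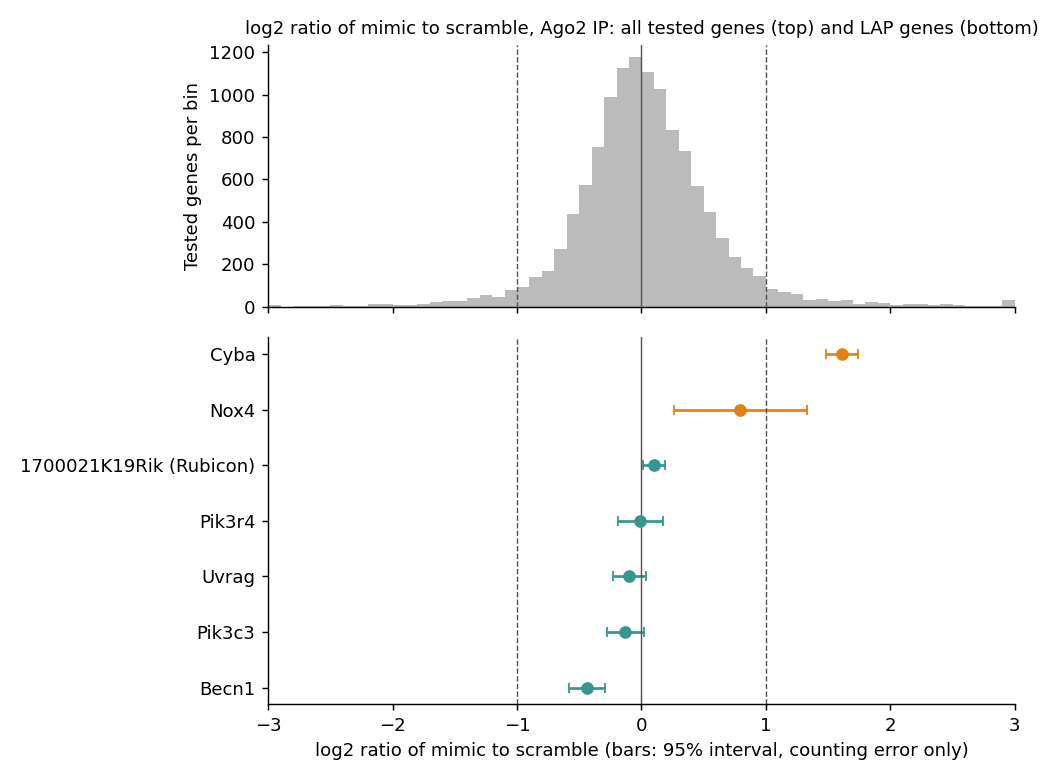
Top, number of tested genes per 0.1 of log2 ratio of mimic to scramble, with genes beyond 3 in either direction in the end bins. Bottom, the 7 genes with enough reads, with 95% intervals for counting error only. Dashed lines mark a log2 ratio of 1 in either direction. Cyba at 1.61 lies past the line, Nox4 at 0.79 reaches across it, and the 5 genes of the Vps34 complex lie between -0.44 and 0.10.

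Set per length, as CPM per kb of the longest coding transcript, the 9 genes differed widely within a library. In scramble-transfected cells Cyba stood highest at 43.9, then Rubicon at 21.5, Pik3c3 at 12.2, Becn1 at 11.8, Uvrag at 10 and Pik3r4 at 5.89. Nox4 followed at 0.685. The 95% counting intervals of Pik3c3 (11.4 to 13.1) and Becn1 (11.1 to 12.6) overlapped, so those neighbours in the order were not distinguishable. All other neighbours down to Nox4 had intervals apart. The intervals cover counting error but not the choice of transcript length for each gene. In mimic-transfected cells the order was Cyba at 134, Rubicon at 23, Pik3c3 at 11.2, Uvrag at 9.36, Becn1 at 8.75, Pik3r4 at 5.84 and Nox4 at 1.18. There Uvrag (8.76 to 10) and Becn1 (8.12 to 9.41) overlapped. With scramble, Becn1 and Uvrag had 964 reads each, so their order there came only from the transcript lengths used, 4365 and 5157 nt. Whether their levels differ was not tested. The 5 genes of the kinase complex stayed within 3.65-fold of each other with scramble and 3.94-fold with the mimic. Cyba, by contrast, stood 64.1-fold above Nox4, the 1 catalytic chain of the 9 genes with reads, in the scramble library and 113-fold above it in the mimic library. By level per length Cyba ranked 1769 among the tested genes with scramble and 397 with the mimic.

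The seed matches printed above can be set beside the ratios. Cyba and Nox4, with a 7mer-m8 match in the coding region, had the highest ratios, and the 5 other tested genes, without one, lay between -0.44 and 0.10. Pik3r4 with its 6mer was at -0.01. Whether a match bears on the ratio was not tested. The genes are few and were chosen by name, Cyba stood at 1.08 with the length trend subtracted, and Nox4 had only 83 and 48 reads. Over all tested genes with a coding region, 4.34% carried a 7mer-m8 match there. Their median log2 ratio was -0.03, against -0.00 for all. Of these 511 genes, 30 (5.87%) were past the fold upward, against 3.8%. In the other direction 22 of the 511 were past it, where 3.08% of all tested genes were. Cyba ranked 13 of these 511 genes from the highest and Nox4 ranked 54. Length bears on how often a match occurs. Of 1187 tested genes with a coding region within 20% of its length, 24 (2.02%) had one, with a median log2 ratio of 0.53 against 0.24 for all of that length, and 1 of the 24 was higher than Cyba. For the length of Nox4, 108 of 2578 genes (4.19%) had a match, with medians of 0.01 and -0.07.

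No 7mer-m8 match was found in the 3′-UTR of any of the 9 genes. The 102 nt of the Cyba 3′-UTR and the 1819 nt of that of Nox4 held no 6mer either, nor did the 3′-UTRs of Becn1 (2861 nt), Uvrag (2869 nt), Rubicon (2265 nt), Pik3c3 (732 nt) and Pik3r4 (372 nt). Ncf1 had 1 6mer in its 3′-UTR, at base 1157 of 1690, and no reads to compare. Over all tested genes with an annotated 3′-UTR, 6.77% had a 6mer and 1.56% a 7mer-m8 match. Only uninterrupted matches were searched, so pairing with mismatches or wobbles in the seed would be missed.

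Of the listed genes that work beside the Rubicon-Vps34 complex, none was past the fold. The share of all tested genes past it was 3.96% upward and 3.08% downward. The 9 others that join or regulate the kinase, from the autophagy subunit Atg14 to the Bcl2 family, had log2 ratios from -0.29 to 0.12 with a median of -0.18. Of the 9, 2 had intervals above 0 and 5 below, where 31.5% and 32.5% of all tested genes had one. Mcl1, an anti-apoptotic protein that can bind Beclin 1, had the most reads, 17374 and 16039, and was at 0.11 (95% interval 0.08 to 0.15). Atg14, which takes the place of UVRAG in the autophagy form of the complex, stood at -0.22 (-0.42 to -0.02), from 371 and 432 reads. Its ratio and that of Uvrag, -0.10, had overlapping intervals.

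Downstream of the kinase and the oxidase lies the conjugation of LC3, and upstream of autophagy but not of LAP lie the initiation genes. Of 16 conjugation genes 7 had intervals above 0 and 1 below, with a median log2 ratio of 0.05. Gabarap, a relative of LC3, had the most reads, 5830 and 4109, and was at 0.50 (95% interval 0.45 to 0.56). Of 10 initiation genes 1 had an interval above 0 and 5 below, with a median of -0.15. Rb1cc1, the FIP200 scaffold of the ULK1 complex, was the lowest at -0.87 (-0.94 to -0.80), from 2725 and 4977 reads. Over all tested genes 31.5% had an interval above 0 and 32.5% one below 0. No gene of either list was past the fold, which 3.96% of all tested genes passed upward and 3.08% downward. Whether the lists differ was not tested, and the transcript length that moves with the ratio differs between genes of both. Atg14 and Ambra1 stand in the initiation list and among the kinase regulators.

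**Figure D4:**
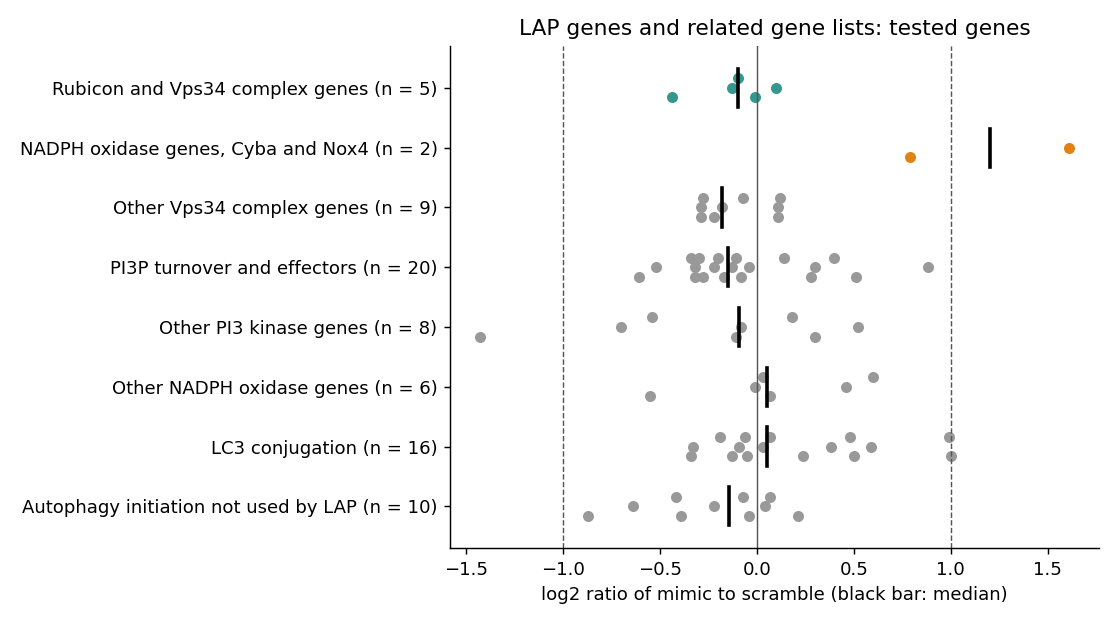
log2 ratio of mimic to scramble for the tested genes of the Rubicon-Vps34 complex, the oxidase and 6 related lists, 1 point a gene, with the median as a black bar and dashed lines at 1 in either direction. Cyba at 1.61 is the highest point shown and Pik3cd at -1.43 the lowest, and the medians of the 6 related lists lie between -0.18 and 0.05.

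In the genome, several of these genes overlap others, which bears on how their reads were counted. In GRCm38 Cyba is on chromosome 8 from 122424776 to 122432930, Nox4 on chromosome 7 from 87246096 to 87398710, Rubcn on chromosome 16 from 32821703 to 32877766, Uvrag on chromosome 7 from 98885021 to 99141141 and Pik3r4 on chromosome 9 from 105642978 to 105687657. Rubcn shares 267 bp with Fyttd1 on the other strand, whose log2 ratio was -0.01 from 1939 and 1956 reads. Becn1, on chromosome 11 from 101285952 to 101302286, shares 10366 bp with Cntd1 on the other strand, which had 10 and 5 reads. Ncf1 shares 4303 bp with Gtf2ird2, also on the other strand, which had 209 and 230 reads, and the part of this overlap in the near-0 count of Ncf1 was not tested. Reads over more than 1 gene were left out of the counts and came to 0.653% of mimic entries and 0.585% of scramble entries.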

How the data were processed

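RNA pulled down with Ago2 was sequenced from 1 miR-471-5p mimic and 1 scramble library (Magna-RIP kit, Illumina TruSeq). The authors deposited 1 table of raw counts a library, keyed by gene symbol and not normalized, with 22609 gene rows and 5 summary rows. Per the labels, the submitters' processing notes name CASAVA 1.8.2, TopHat2 2.0.8b, HTSeq and build mm9, and annotation and strandedness are not given in the sources used here. Summary rows were left out: entries aligned to more than one place were 39.8% of the mimic library and 35.6% of the scramble library, and those outside genes 6.84% and 7.89%.

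Genes with at least 20 reads over both libraries were compared. Depth was scaled with TMM (edgeR 4.0.16, R 4.3.3), with factors of 1.0026 and 0.9974. With 1 library a condition there are no residual degrees of freedom for edgeR's quasi-likelihood test, so a log2 ratio of 1 in either direction served as the fold, and 95% intervals cover counting error only, as reads are not independent molecules. Where a library had 0 reads, 3 were used, and no ratio was computed when both had 3 or fewer. The scaling and intervals were tested on simulated counts that held counting error only, so that check does not cover a spread between replicates. Lengths and seed matches came from GENCODE M21 (GRCm38), not the authors' mm9, with 22209 of 22609 symbols matched, directly or through a RefSeq synonym, and the longest protein-coding transcript, coding region and 3′-UTR were used. Python 3.11.15 and scipy 1.17.1 were used.

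The 9 genes and the lists were chosen with earlier results of these data known. Named were all 9 genes and, from each list, genes past the fold and the gene with the most reads. Other list genes were named after their values were seen, and some list genes are not reported here. Alternatives were DESeq2 1.42.0 size factors, total counts, other count filters, folds and intervals, trends with level and length, and other transcripts.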

Additional observations from a re-analysis of the deposited data

How the results depend on the processing

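Over 39 results and 131 alternative values, 118 kept their value within the counting interval, or their count within 1.5 times. These include 24 results and 48 alternative values that count list genes past the fold, and 46 of those 48 were kept. Many of these list counts were 0 in every setting. The TMM factors were 1.0026 and 0.9974, so DESeq2 size factors and total counts scale almost as TMM does and their agreement adds little. None of the log2 ratios outside counting error changed sign. No paired analysis was possible because each condition has 1 library. With the length trend subtracted, log2 ratios became 0.27 for 1700021K19Rik, 0.06 for Uvrag and 1.08 for Cyba, and the median of the Rubicon and Vps34 complex genes became 0.06. With GC content added, an alternative chosen after seeing the data, they were 0.22, 0.06, 1.01 and 0.06. With the median of the 500 genes nearest in level subtracted, 2 genes in place of 1 had an interval below 0, since Pik3c3 joined Becn1. The share of all tested genes with such an interval was then 31.8%. With intervals of 99%, 2 genes in place of 3 had one above 0, where 27% of all tested genes did. With at least 200 counts the oxidase median was 1.62, as Cyba alone was left, and with a log2 ratio of 0.5 as the fold 2 genes in place of 1 were past it. Among the LC3 conjugation genes 1 was past the fold with DESeq2 size factors and 1 with total counts, Atg16l2 with 128 and 64 reads, which TMM puts just under the fold. Of 12186 tested genes, 483 (3.96%) were past the fold upward and 375 (3.08%) downward. With no count filter 789 (5.79%) and 676 (4.96%) of 13626 genes were. With at least 200 counts 240 (2.37%) and 185 (1.83%) of 10113 genes were. At a log2 ratio of 0.5, 1816 (14.9%) and 1483 (12.2%) of the 12186 genes were. Depth limits Nox4 most, and Cybb and Ncf1 had at most 1 read a library. The spread between replicates cannot be had from these files, so whether the difference in Cyba would recur was not tested.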

Other observations

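The wider PI3 kinase and PI3P genes were also measured. In a list of 20 genes that turn over PI3P or bind it, 0 were past the fold, 6 had intervals above 0 and 11 below, and the median log2 ratio was -0.15. Over all tested genes 31.5% had an interval above 0 and 32.5% one below 0, and 3.96% were past the fold upward and 3.08% downward. Mtmr3, a phosphatase of PI3P, had the most reads, 5477 and 5770 in the mimic and scramble libraries, with a log2 ratio of -0.08 (95% interval -0.13 to -0.02). Snx3, a small PI3P-binding sorting nexin, was the highest at 0.88 (0.78 to 0.98), from 2399 and 1305 reads. Fig4, a phosphatase that works with the kinase PIKfyve, was the lowest at -0.61 (-0.72 to -0.49).

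Of 12 other PI3 kinase genes 8 had enough reads, with a median log2 ratio of -0.09. Pik3r2, a regulatory subunit of the class I enzymes, had the most reads, 5978 and 4867, and stood at 0.30 (95% interval 0.24 to 0.35). Pik3cd, a class I catalytic chain known from leukocytes, was past the fold at -1.43 (-2.25 to -0.67), from only 20 and 54 reads. Downward, 3.08% of all tested genes were past it. Pik3cg and Pik3c2g were at 0 in both libraries.

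Other markers fixed for the cell check gave these values. Of 14 Sertoli genes with a row, 7 had enough reads, and Wt1, with 73 and 35 reads, was past the fold at 1.06 (0.46 to 1.68), while Inhba, with 40 and 94, was past it at -1.23 (-1.81 to -0.68). Both ratios rest on few reads, and 3.96% of all tested genes were past the fold upward and 3.08% downward. The 5 Leydig genes summed to 4.5 and 4.71 CPM in the mimic and scramble libraries, led by Star with 60 and 69 reads. The 6 germ cell genes came to 6.85 and 7.93 CPM, led by Ddx4 with 46 and 74, and the 3 endothelial genes to 0.321 and 0.482, led by Pecam1 with 6 and 7. The 4 genes of peritubular myoid cells summed to 4248 and 5816 CPM, nearly all from Acta2 and Tagln, which cultured cells of many kinds express, while Myh11 had 6 reads in each library.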
